A study of Mus musculus with 16 samples.

Results

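Iron and heme handling was followed through 10 genes, Hmox1, Blvra, Blvrb, Slc40a1, Slc11a1, Slc11a2, Slc48a1, Fth1, Ncoa4 and Tfrc, in 2 subsets of tumor-associated macrophages (TAMs). The genes were a named list of this function, with no threshold on a measured value, but chosen with earlier results of these data known. They are 10 of the 55604 genes listed per sequencing lane and 10 of the 16861 genes with enough counts to be tested. Both subsets came from the peritoneal wash of female C57BL/6 mice that carried ID8 tumors, a mouse ovarian cancer line injected into the peritoneal cavity, after 6 to 7 weeks of tumor growth. The methods give the age of the mice as 6 to 8 weeks. No genetic change is named for them in the labels, and no tumor-free or treated group was analysed here. Tim-4+ TAMs were captured on beads against Tim-4, a receptor for phosphatidylserine that marks resident macrophages of serous cavities. Tim-4- TAMs were then captured on beads against F4/80 from cells without Tim-4. Each subset has 4 libraries, numbered 793, 784, 783 and 779 in both, and each library was sequenced in 2 lanes. The sources do not say whether a number stands for 1 mouse or for pooled mice, so the p-values measure the spread between these 4 pairs.

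A macrophage takes in iron as transferrin through the transferrin receptor, or as heme from engulfed red blood cells. Heme leaves the phagolysosome through a heme transporter and is opened by heme oxygenase into iron, carbon monoxide and biliverdin, and biliverdin reductases turn the last into bilirubin. The freed iron is stored inside ferritin, is released again when ferritin is delivered to lysosomes, or leaves the cell through ferroportin, the known iron exporter of mammalian cells. Cytosolic iron also acts on some of these mRNAs directly. When iron is low, iron regulatory proteins bind a short hairpin, the iron-responsive element, and this blocks translation when the hairpin lies in the 5′ UTR and protects the mRNA from decay when it lies in the 3′ UTR.

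The hairpins found in 3 members are shown because iron regulatory proteins are known to bind such elements. A match was a C, then 5 bases, the loop CAGTGN with any base but G at its end, and 5 bases that pair with the first 5, G-U pairs allowed, read on the transcript strand only. Sequence and gene models are from GENCODE M21 on GRCm38. Capitals mark the 6 bases of the loop, each site is 30 bases long and written 5′ to 3′, and all 6 lie in annotated UTR exons. The first is in the 5′ UTR of Fth1 at chr19:9982731-9982760 on the + strand, the second in the 5′ UTR of Slc40a1 at chr1:45925465-45925494 on the - strand. The other 4 are in the 3′ UTR of Tfrc on the + strand, at chr16:32631218-32631247, chr16:32631597-32631626, chr16:32631662-32631691 and chr16:32631709-32631738.
Fth1: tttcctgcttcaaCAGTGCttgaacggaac
Slc40a1: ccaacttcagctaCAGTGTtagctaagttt
Tfrc site 1: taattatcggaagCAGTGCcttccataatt
Tfrc site 2: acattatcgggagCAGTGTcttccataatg
Tfrc site 3: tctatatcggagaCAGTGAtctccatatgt
Tfrc site 4: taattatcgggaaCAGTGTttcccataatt

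Of 21901 protein-coding genes searched, 22 (0.1%) held a match in a 5′ UTR and 98 (0.447%) in a 3′ UTR. Fth1 and Slc40a1 each held 1 match, in the 5′ UTR, and Tfrc held 4, all in the 3′ UTR. The other 7 members had no match, which says only that this strict pattern is not in their annotated UTRs. Slc11a2, for instance, is known for an iron-responsive element in the 3′ UTR of some of its transcripts. A match is a description of the sequence and not a measure of binding.

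Timd4, the gene behind the sort, was read first. It lay between 524 and 1744 CPM (counts per 1000000 counts of the library, TMM-scaled) in Tim-4+ TAMs and between 1.97 and 85.0 CPM in Tim-4- TAMs, with no overlap. Library totals were 53527928 to 69594245 counts, so 3 counts are worth 0.0431 to 0.0560 CPM. Of 6 macrophage markers 5 were higher in Tim-4+ TAMs, and the sum of the 6 was 43020 to 55500 CPM against 20530 to 32960 CPM in Tim-4- TAMs. Most of this sum was Lyz2, with means of 39790 and 21180 CPM. Csf1r was the marker not called (2775 and 2358 CPM). All 9 markers of tumor and mesothelial cells were lower in Tim-4+ TAMs, with sums of 108 to 396 CPM against 424 to 1961 CPM. Sums of eosinophil and mast cell markers were 0.841 to 1.41 CPM against 0.535 to 18.8 CPM (1 of 4 tested lower, Mcpt4), those of lymphocytes 5.10 to 15.2 against 11.2 to 18.8 CPM (1 of 5 lower, Cd79b), those of dendritic cells 11.9 to 15.9 against 8.18 to 16.3 CPM (Zbtb46 lower, Cd209a higher, of 5), and those of granulocytes 1.62 to 3.07 against 1.69 to 3.65 CPM (0 of 1). These bulk libraries cannot tell fewer cells of a type from less RNA per cell, and the part that the marker differences have in the values below was not tested.

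At an adjusted p under 0.05 in edgeR's paired test, 4 of the 10 genes were higher in Tim-4+ TAMs (Hmox1, Blvrb, Slc11a1 and Fth1) and 3 were lower (Slc40a1, Slc11a2 and Tfrc), with Blvra, Slc48a1 and Ncoa4 not called. Over all 16861 genes tested, 8.97% were called higher and 8.43% lower. Since the genes were chosen with earlier results of these data known, these shares are a description and not a test. Each of the 7 called genes had its direction in all 4 pairs. Between all 4 libraries of one subset and all 4 of the other, only 2 members did not overlap, Blvrb and Fth1, both with Tim-4+ TAMs higher, where 6.84% of all genes did so. No member was without overlap in the lower direction, against 5.92% of all genes. Their median on the log2 scale was 0.04, beside -0.00 over all genes. The fold changes were moderate: 1.36 to 1.74-fold for the called genes other than Slc40a1, which alone passed 2-fold.

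**Figure D1:**
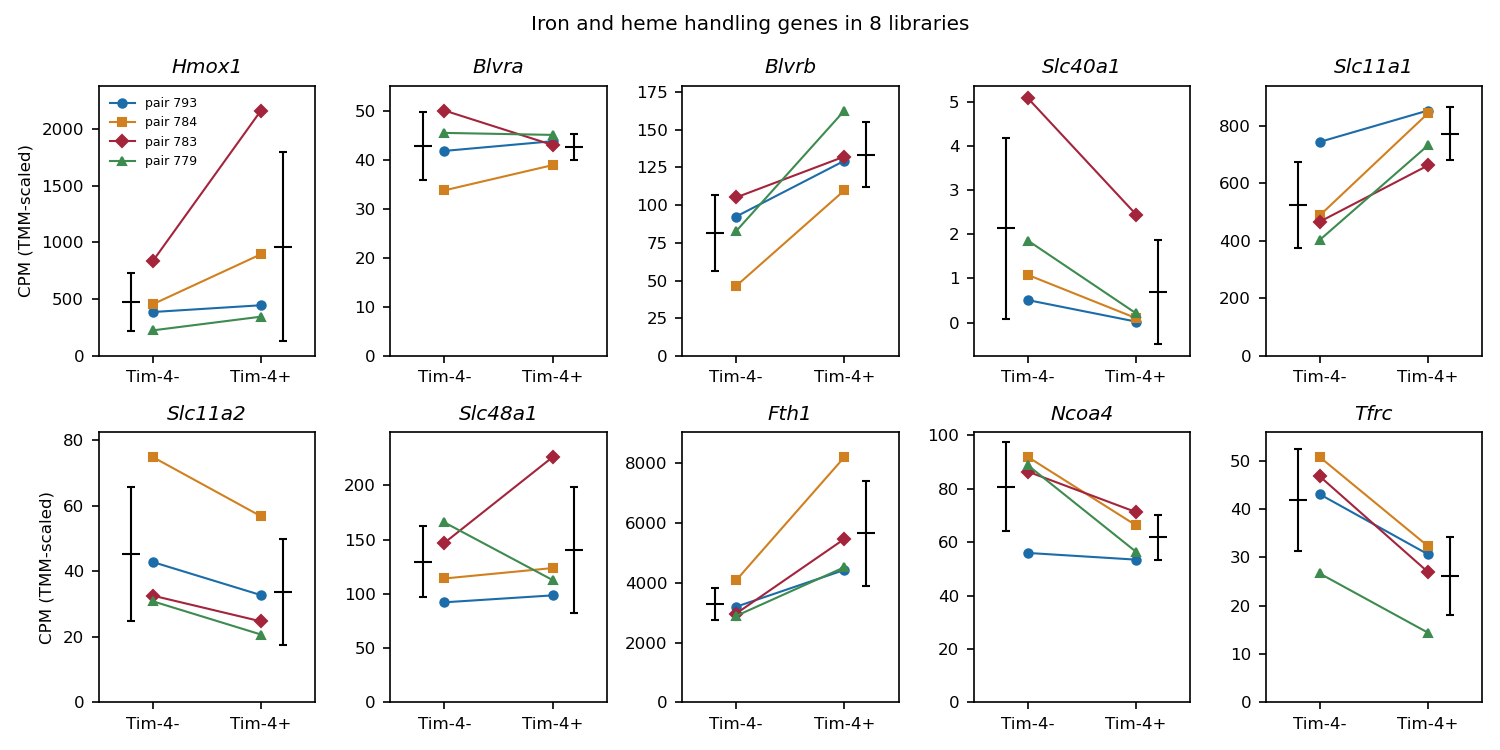
CPM of each gene in Tim-4- (left) and Tim-4+ (right) TAMs on linear axes, with a line joining the libraries of 1 pair and a black bar for the mean and SD of 4 libraries. The lines of Fth1 and Blvrb all climb, those of Tfrc, Slc11a2 and Slc40a1 all descend, and the libraries of pair 783 are the highest of their subset for Hmox1 and Slc40a1.

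These calls rest on the pairing, since libraries of a pair shared part of their deviation from the subset mean (r = 0.277 to 0.498). Without the pair as a term none of the 10 genes was called, and the adjusted p of the 7 ranged from 0.111 for Fth1 to 0.583 for Slc11a2, where 1.38% of all genes were called in either direction. The spread between pairs could be wide beside the paired change: the highest Tim-4+ library had 6.25 times the Hmox1 of the lowest, and the paired change was 1.74-fold. Scaling by total counts put the median log2 fold change of all genes at -0.36, and under it 0 members were called higher and 5 lower. Relative to that median the 7 called genes lay close to their values above, Hmox1 at 0.79 and Tfrc at -0.70.

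Heme breakdown differed at 2 of its 3 genes. Hmox1, the inducible heme oxygenase (chr8:75093621-75100589), stood at 446, 895, 2161 and 346 CPM in the Tim-4+ libraries of pairs 793, 784, 783 and 779, and at 387, 455, 835 and 225 CPM in the Tim-4- libraries. The Tim-4+ library was the higher in every pair, and the pairs kept the same order in both subsets, with 783 highest and 779 lowest. The paired log2 fold change was 0.80 (SE 0.20, adjusted p = 0.0335), with log2 ratios of 0.21 in pair 793 to 1.37 in pair 783. The call was lost without pair 783 (0.60, adjusted p = 0.0521), without pair 784 (0.73, adjusted p = 0.153) and without pair 779 (0.85, adjusted p = 0.0954).

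Blvrb, the biliverdin reductase B that also reduces flavins (chr7:27447978-27466144), was 129, 110, 132 and 163 CPM in Tim-4+ TAMs and 92.4, 46.4, 105 and 82.8 CPM in Tim-4- TAMs, in the same order of pairs. The lowest Tim-4+ library was above the highest Tim-4- library. Its paired log2 fold change was 0.76 (SE 0.16, adjusted p = 0.0223), and the call was lost without pair 784 (0.60, adjusted p = 0.0970) or pair 779 (0.68, adjusted p = 0.0927). Blvra, the reductase of the main bile pigment isomer (chr2:127070665-127097084), averaged 42.8 ± 2.67 CPM in the Tim-4+ subset and 42.9 ± 6.90 CPM in the other (SD, n = 4). It was higher in 2 pairs and lower in 2, and the 95% interval of its log2 fold change, -0.24 to 0.26, lies below the estimates for Hmox1 and Blvrb.

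Storage was the most abundant function. Fth1, the heavy chain of ferritin with ferroxidase activity (chr19:9980598-9985098), was 4423, 8192, 5459 and 4514 CPM in Tim-4+ TAMs and 3195, 4080, 2968 and 2889 CPM in Tim-4- TAMs. The subsets did not overlap, and the difference in pair 784 was the widest. Its paired log2 fold change was 0.75 (SE 0.18, adjusted p = 0.0283), lost as a call without pair 784 (0.66, adjusted p = 0.132), pair 783 (0.70, adjusted p = 0.0637) or pair 779 (0.79, adjusted p = 0.0895). Fth1 has near-identical processed copies in the genome, and reads that fit several places were set aside by the counting, so its level is a lower estimate. Those reads were unequal between the lanes of 1 library, Tim-4- of pair 779 (10020232 against 3153643). Its Fth1 counts were 93769 in lane 1 and 94378 in lane 2. Relative to the total of each lane, Fth1 in lane 1 was 1.01 times that in lane 2. Ftl1, the light chain of the same shell, was higher in Tim-4+ TAMs too, at 664, 770, 803 and 844 CPM against 465, 312, 603 and 479 CPM in Tim-4- TAMs (log2 fold change 0.76, SE 0.17, adjusted p = 0.0253), again with no overlap. The order of the pairs differed between the chains. In Tim-4- TAMs, pair 784 had the highest Fth1 and the lowest Ftl1. The call of Ftl1 was lost without pair 793, 784 or 779 (adjusted p = 0.0542, 0.107 and 0.0901). The copy Ftl1-ps1 had 5609 to 14096 counts per library, beside 22831 to 47325 for Ftl1. How reads were divided between these copies was not tested.

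Ncoa4, the receptor that carries ferritin to lysosomes (chr14:32159865-32179855), did not follow ferritin. It was 53.5, 66.3, 71.3 and 56.4 CPM in Tim-4+ and 56.0, 91.9, 86.5 and 88.8 CPM in Tim-4- TAMs, lower in 4 of 4 pairs. The log2 fold change of -0.37 (SE 0.12, adjusted p = 0.0727) did not pass the test, with an unadjusted 95% interval of -0.65 to -0.09. The Tim-4- library of pair 793 was far below the other 3.

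Export showed the widest ratio at the lowest level. Slc40a1, ferroportin (chr1:45908068-45926523), had 1, 5, 134 and 10 counts in the Tim-4+ libraries of pairs 793, 784, 783 and 779 and 34, 79, 399 and 121 counts in the Tim-4- libraries. That is 0.0210, 0.100, 2.45 and 0.208 CPM against 0.510, 1.08, 5.09 and 1.86 CPM. Every Tim-4+ library was below its partner, yet the Tim-4+ library of pair 783 was above 3 of the 4 Tim-4- libraries. The log2 fold change was -2.65 (SE 0.55, adjusted p = 0.0198). By pair, the Tim-4- level was 2.08 times the Tim-4+ level in pair 783 (exact 95% interval 1.70 to 2.54) and 24.3 times in pair 793 (exact 95% interval 4.07 to 986), where the Tim-4+ library has 1 count. These intervals allow only for the error of independent counts. Lanes of a library differed by more than that, with a chi-square of 2.29 to 2.42 per degree of freedom. The intervals are thus too narrow even for repeated sequencing of a library, and they leave out the spread between pairs. The call was lost without pair 793 (-2.37, adjusted p = 0.0558), pair 784 (-2.42, adjusted p = 0.106) or pair 779 (-2.40, adjusted p = 0.0877), and without pair 783 the log2 fold change was -3.50 (adjusted p = 0.00209). The tumor and mesothelial marker sum was also lower in every Tim-4+ library than in its partner. In pairs 793, 784, 783 and 779 it was 108, 196, 396 and 223 CPM in Tim-4+ TAMs, the order in which Slc40a1 stands there, and 424, 1283, 885 and 1961 CPM in Tim-4- TAMs, where Slc40a1 was highest in pair 783. The part of those cells in the difference was not tested.

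The transferrin receptor gave the smallest adjusted p of the 10 genes. Tfrc (chr16:32608920-32632794) was 30.7, 32.4, 27.0 and 14.4 CPM in Tim-4+ TAMs and 43.1, 50.8, 46.8 and 26.7 CPM in Tim-4- TAMs. Pair 779 was low in both subsets, so the subsets overlapped, but the log2 ratios of the pairs lay within -0.89 to -0.49. The log2 fold change was -0.70 (SE 0.11, adjusted p = 0.00964), and of the left-out pairs only 784 ended the call (-0.72, adjusted p = 0.0609), as did the fit without the pair term (-0.68, adjusted p = 0.206). Tfrc, which carries its hairpins in the 3′ UTR, was thus lower in Tim-4+ TAMs, Slc40a1 with a 5′ hairpin was lower too, and Fth1 with a 5′ hairpin was higher. In these libraries mRNA was measured, and the block of translation at a 5′ hairpin would not be seen.

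**Figure D2:**
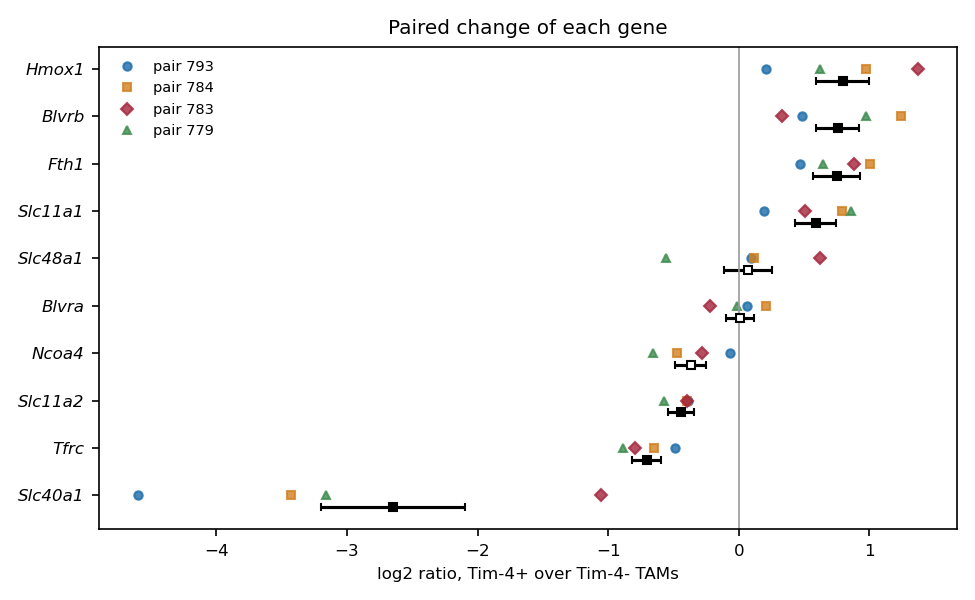
Log2 ratio of Tim-4+ over Tim-4- TAMs for each gene, with 1 colored mark per pair and a black square for the paired estimate with its SE, filled where the adjusted p was under 0.05. The pair ratios of Slc11a2 and Tfrc sit close together, from -0.58 to -0.39 and from -0.89 to -0.49, and those of Slc40a1 spread from -4.60 to -1.05.

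The transporters of endosomes and lysosomes went in both directions. Slc11a1 (Nramp1), the metal pump of the phagosome (chr1:74375195-74386062), was 854, 844, 663 and 732 CPM in Tim-4+ and 744, 489, 467 and 403 CPM in Tim-4- TAMs. All pairs were higher in Tim-4+ TAMs, and the Tim-4- library of pair 793 reached into the Tim-4+ range. It differed by a log2 fold change of 0.59 (SE 0.15, adjusted p = 0.0374), lost as a call without pair 784 (0.52, adjusted p = 0.157), pair 783 (0.61, adjusted p = 0.0538) or pair 779 (0.50, adjusted p = 0.138). C57BL/6 mice carry a loss-of-function allele of Slc11a1, so its mRNA does not stand for a working transporter in this strain.

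Slc11a2 (DMT1), which moves ferrous iron out of the endosome (chr15:100387898-100425072), was 32.7, 56.8, 24.7 and 20.7 CPM in Tim-4+ and 42.8, 74.8, 32.6 and 30.8 CPM in Tim-4- TAMs. The pairs had the same order in both subsets, from 784 down to 779, and their log2 ratios differed by an SD of only 0.09. The log2 fold change was -0.44 (SE 0.10, adjusted p = 0.0242), and the call was lost without pair 793 (-0.45, adjusted p = 0.0842), pair 784 (-0.45, adjusted p = 0.0935) or pair 779 (-0.40, adjusted p = 0.0836). An exon of Gm5475 overlaps it on the opposite strand, with 1 to 16 counts per library. The sources do not say if reads were counted by strand.

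Slc48a1 (HRG1), the heme transporter of the phagolysosome (chr15:97778520-97792692), was 98.6, 124, 226 and 113 CPM in Tim-4+ and 92.3, 114, 147 and 166 CPM in Tim-4- TAMs. It was higher in 3 pairs and lower in pair 779, with a log2 fold change of 0.07 and a 95% interval of -0.35 to 0.49. Its exons overlap those of Hdac7 on the opposite strand, which was 38.2 CPM in Tim-4+ and 64.0 CPM in Tim-4- TAMs on average. The deposited counts hold a class of ambiguous reads, and reads over both genes may have been set aside there. How such reads were counted was not tested.

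Levels were compared between genes only per length, as TPM within a subset, with the summed exons of a gene as its length. Fth1 stood first with 4274 TPM in Tim-4+ and 3431 TPM in Tim-4- TAMs, followed by Hmox1 with 1493 and 980 TPM and Slc11a1 with 545 and 507 TPM. Slc48a1 (136 and 170 TPM), Blvrb (125 and 104 TPM) and Blvra (45.7 and 62.7 TPM) came next. Ncoa4, Slc11a2 and Tfrc lay between 11.2 and 31.3 TPM in both subsets, and Slc40a1 was last with 0.215 and 0.851 TPM. The order of the 10 means was the same in both subsets.

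Several neighbors in that order did not separate. Slc48a1 was above Blvrb in 2 of 4 Tim-4+ and 4 of 4 Tim-4- libraries, and with the longest transcript as the length Blvrb came before Slc48a1 in both subsets. Ncoa4 was above Slc11a2 in 3 Tim-4+ and 2 Tim-4- libraries, and Slc11a2 was above Tfrc in 3 and 2. Hmox1 overlapped Slc11a1 in both subsets, with 468 to 3489 TPM against 468 to 608 TPM in Tim-4+ TAMs. Slc11a1 over Slc48a1, Blvra over Ncoa4, and Tfrc over Slc40a1 had no overlap in either subset. TPM is not scaled between libraries as CPM is, so no difference between subsets was read from it.

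**Figure D3:**
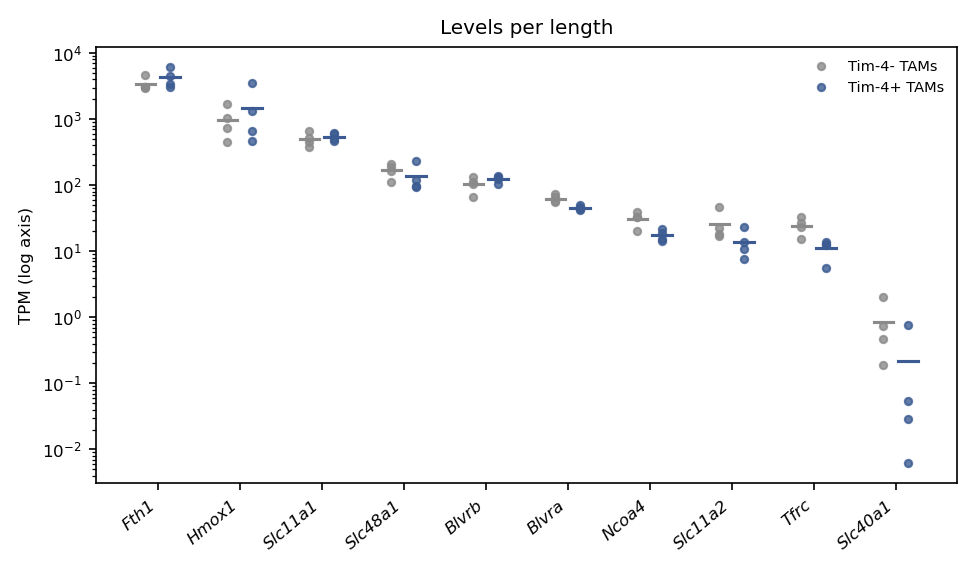
TPM of each gene on a log axis in the 4 libraries of each subset, with the mean as a short line. Fth1 lies at 2935 TPM or more in every library, and Slc40a1 lies at 2.01 TPM or less.

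Pair 783 stood apart for transcripts of hemoglobin. Summed over Hba-a1, Hba-a2, Hbb-bs and Hbb-bt, it had 13535 counts (247 CPM) in Tim-4+ and 4919 counts (62.7 CPM) in Tim-4- TAMs. The other 6 libraries had 0 to 163 counts, at most 3.43 CPM. Of the 8 red blood cell markers, 4 had enough counts to be tested and 1 was called higher. Slc4a1, the anion exchanger of the red cell membrane, had 0 or 1 count in each library. The methods name a library kit that removes globin mRNA, so these counts are what was left after that step, and whether it worked alike in all libraries is not given.

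The same pair had the highest Hmox1 and the highest Slc40a1 of each subset. It also had the highest Cd163, the receptor for hemoglobin bound to haptoglobin, which falls outside the rule for named genes and was chosen after its values were seen. Cd163 was 74.0, 73.3, 248 and 102 CPM in Tim-4+ and 63.1, 30.5, 71.0 and 41.5 CPM in Tim-4- TAMs (log2 fold change 1.15, SE 0.25, adjusted p = 0.0255). It stayed higher without pair 783 (0.93, adjusted p = 0.00858), and the call was lost without pair 784 (adjusted p = 0.114) or pair 779 (0.107), or without a count filter (0.0965). The Tim-4+ library of pair 783 had the highest Slc48a1 of all 8 libraries, at 226 CPM. Hp, haptoglobin, also chosen after its values were seen, was instead lowest in pair 783 in both subsets. It was 128, 515, 94.0 and 239 CPM in Tim-4+ and 67.9, 216, 51.9 and 65.6 CPM in Tim-4- TAMs (log2 fold change 1.22, SE 0.18, adjusted p = 0.00875). Fth1 was highest in pair 784 in both subsets. With 1 pair that stands apart no relation between hemoglobin transcripts and these genes was tested. Without pair 783, Hmox1 stayed higher in 3 of 3 pairs and Slc40a1 lower in 3 of 3, with the values given above.

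**Figure D4:**
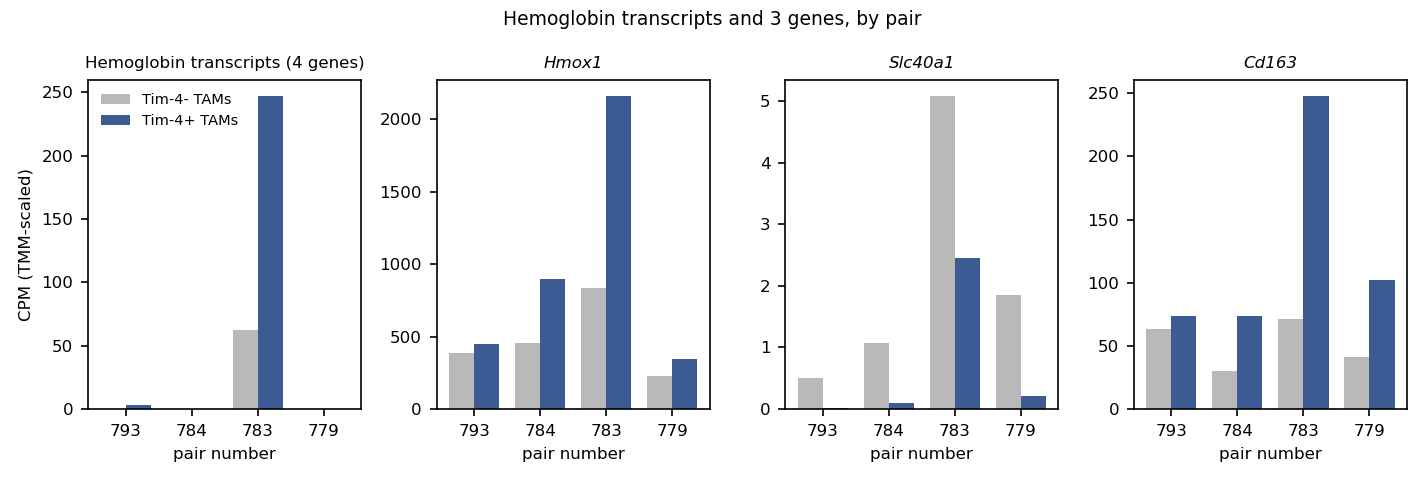
Bars of CPM by pair for the summed hemoglobin transcripts, Hmox1, Slc40a1 and Cd163, gray for Tim-4- and blue for Tim-4+ TAMs, 1 library per bar. Pair 783 has the tallest bar of each subset in all 4 panels, and the subset with the taller bar in that pair is Tim-4+ for all but Slc40a1. Hp, not drawn, was lowest in that pair in both subsets.

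Of 74 other iron and heme genes in lists by role, 68 were tested. In Tim-4+ TAMs 13 of them were higher, 6 were lower and 49 were not called. Their median log2 fold change was 0.03. Tfr2, Ltf, Ftmt, Hephl1, Hamp and Hamp2 had too few counts. The shares of called genes, 13 and 6 of 68, stand beside 8.97% and 8.43% of all genes. The lists too were chosen with earlier results known, so no enrichment can be read from these shares.

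Among 16 tested genes of iron and heme uptake, 5 were higher and 3 lower. Slc22a17, a receptor for lipocalin 2, was 34.4, 21.6, 20.8 and 36.4 CPM in Tim-4+ and 11.6, 1.63, 6.97 and 4.74 CPM in Tim-4- TAMs (log2 fold change 2.43, SE 0.40, adjusted p = 0.0141). Lcn2, lipocalin 2, which binds iron carried by siderophores, had 135 CPM in the Tim-4+ library of pair 784 and 5.80 to 11.01 CPM in the other 3, against 32.9 CPM and 1.78 to 3.15 CPM in Tim-4- TAMs (1.82, SE 0.24, adjusted p = 0.00848). Ligand and receptor were both higher, although the Lcn2 libraries of the subsets overlapped. Both calls were lost without pair 784 (adjusted p = 0.0574 and 0.0692), and that of Slc22a17 also without pair 779 (0.0669) or without a count filter (0.0944).

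Of the 4 Steap genes, which encode ferrireductases or their relatives, Steap4 and Steap2 were lower. Steap3, chosen after its values were seen, averaged 50.7 ± 10.5 CPM in Tim-4+ against 48.3 ± 16.5 CPM in Tim-4- TAMs (SD, n = 4). It was not called (log2 fold change 0.11, adjusted p = 0.660), nor was Steap1, also chosen so, at 0.684 CPM or less in every library. Steap4 was 1.05 to 4.64 CPM in Tim-4+ TAMs and 3.59 to 63.8 CPM in Tim-4- TAMs (-2.45, SE 0.61, adjusted p = 0.0404). Steap2 was 1.05 to 3.95 CPM in Tim-4+ and 4.96 to 15.1 CPM in Tim-4- TAMs (-2.11, SE 0.46, adjusted p = 0.0274). For both genes the Tim-4- libraries of pairs 784 and 779 were the highest, and those were also the libraries with the highest tumor and mesothelial marker sums, 1283 and 1961 CPM. The part of those cells in the difference was not tested. Both calls were lost without pair 793, 784 or 779, with adjusted p from 0.102 to 0.153, and without a count filter, with adjusted p of 0.272 for Steap4 and 0.0868 for Steap2.

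In storage and export, 2 of 8 tested genes were higher and 1 was lower, with Ftl1 described above. Cp, ceruloplasmin, the ferroxidase that works beside ferroportin, was 138, 201, 235 and 230 CPM in Tim-4+ and 74.4, 142, 94.2 and 73.8 CPM in Tim-4- TAMs (1.09, SE 0.19, adjusted p = 0.0126). It was thus higher where ferroportin mRNA was lower. Abcg2, an efflux pump that can carry porphyrins and heme, was 1.44 to 4.52 CPM in Tim-4+ and 5.64 to 16.1 CPM in Tim-4- TAMs (-1.70, SE 0.30, adjusted p = 0.0133), a call lost without pair 784 (adjusted p = 0.0842).

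Heme synthesis had 1 call among 12 genes. Fech, which inserts iron into protoporphyrin, averaged 54.2 ± 8.90 CPM in the Tim-4+ subset and 42.1 ± 5.05 CPM in the other (SD, n = 4, log2 fold change 0.36, SE 0.10, adjusted p = 0.0421), a call lost when any pair was left out (adjusted p from 0.0939 to 0.141) or without a count filter (0.0812).

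Of 12 genes that control iron and heme genes, only Epas1 was called. Epas1, the hypoxia-inducible factor 2 alpha, was 139, 154, 185 and 146 CPM in Tim-4+ and 36.4, 21.6, 41.9 and 26.3 CPM in Tim-4- TAMs. The subsets lay far apart, with a log2 fold change of 2.34 (SE 0.16, adjusted p = 0.00117), and the call held without the pair term (2.30, adjusted p = 0.00483) and without each pair in turn. The mRNA of the iron regulatory proteins was not called. Aco1 was 48.8 to 71.0 CPM in Tim-4+ and 62.8 to 82.9 CPM in Tim-4- TAMs, with a 95% interval of the log2 fold change of -0.49 to 0.02. Ireb2 was 35.0 to 42.8 CPM and 37.6 to 64.4 CPM, with an interval of -0.61 to -0.03 and an adjusted p of 0.121. Aco1 and Ireb2 fall outside the rule for named genes and were chosen after their values were seen.

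Mitochondrial iron and iron-sulfur cluster genes had 4 higher and 2 lower among 20. The cluster scaffold Iscu (0.76, SE 0.11, adjusted p = 0.00799) and the cluster assembly factors Bola3 (0.71, SE 0.15, adjusted p = 0.0182) and Nfu1 (0.68, SE 0.12, adjusted p = 0.0115) were higher by similar log2 fold changes. Iscu was 50.9 to 90.2 CPM in Tim-4+ and 32.5 to 50.1 CPM in Tim-4- TAMs, Bola3 15.6 to 19.3 and 8.90 to 12.2 CPM, and Nfu1 31.3 to 45.6 and 20.96 to 27.4 CPM. All 3 were without overlap between the subsets. In this role 5 of 20 genes were so with Tim-4+ TAMs higher and 2 with them lower, beside 6.84% and 5.92% of all genes. Fdxr, the reductase that feeds electrons to cluster assembly and steroid synthesis, was lower, at 6.34 to 12.5 CPM against 13.8 to 23.7 CPM (-0.93, SE 0.24, adjusted p = 0.0389). All 4 calls were lost without pair 784 (adjusted p from 0.0574 to 0.166), that of Bola3 also without pair 793 (0.0705), and that of Fdxr also without pairs 793 (0.0557) and 779 (0.122).

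**Figure D5:**
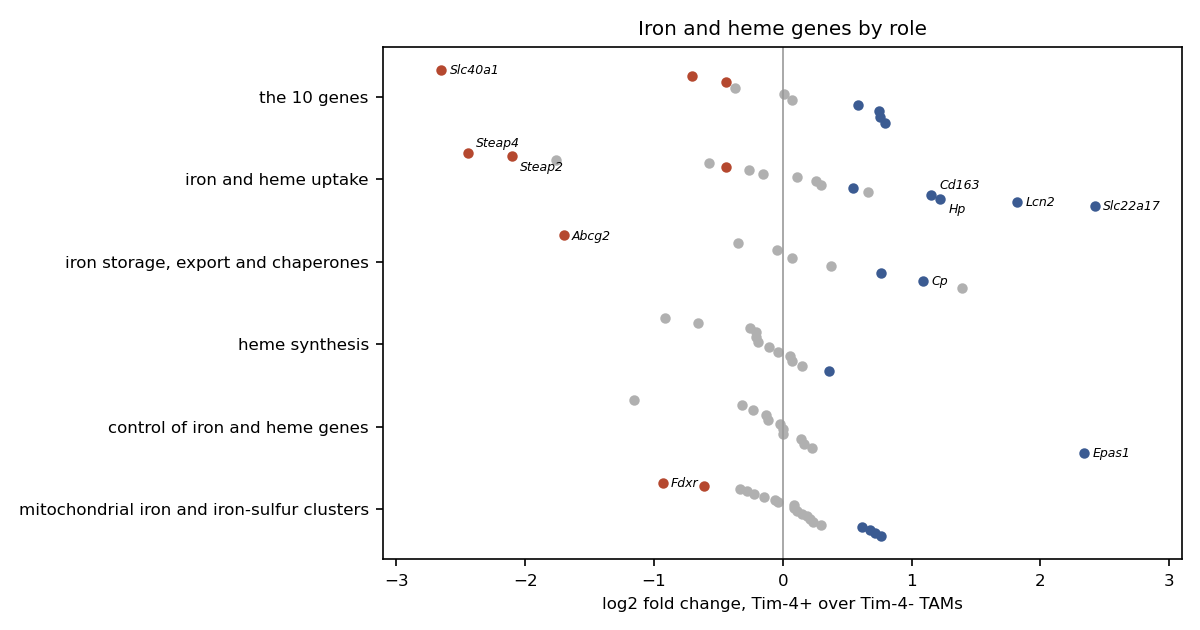
Log2 fold change of the 10 genes and of 68 other tested iron and heme genes, in rows by role, blue where called higher in Tim-4+ TAMs, red where called lower and gray where not called. Labels name called genes beyond 0.9 on the log2 scale, and 49 of the 68 other genes are gray.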

How the data were processed

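RNA-Seq was performed on both TAM subsets in 4 pairs, with stranded total RNA libraries after removal of ribosomal RNA. What the authors deposited are counts of reads by gene and lane, as whole numbers that were not normalized. The submitters' notes name TopHat2 2.0.13, Cufflinks, Cuffdiff 2.2.1, FastQC 0.11.3 and GRCm38 (mm10), whereas the methods text names hg19. The read counter, its annotation and its use of strand are not given in the sources used here. No column of another sample was present.

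Lanes were summed per library, a replicate. Identifiers were matched to GENCODE M21 on GRCm38 (98.42% found). In lane 1 of pair 793, Tim-4-, genes carry symbols only, and this lane was joined by row order, after 96.92% of 53618 symbols matched. All 10 members matched in it. Lanes of a library differed by a chi-square of 2.29 to 2.42 per degree of freedom.

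A gene was tested where 4 or more libraries had 10 or more counts, with edgeR 4.0.16 (R 4.3.3) by the quasi-likelihood test with TMM factors, robust estimation, the pair as a block, and p-values of 16861 genes adjusted by Benjamini-Hochberg. SE is the log2 fold change divided by the square root of F, intervals are at 95% and unadjusted, and CPM is TMM-scaled. The labels' numbers were taken as pairs, since same-numbered libraries deviated together (r = 0.277 to 0.498). Members and lists were chosen with earlier results of these data known. Of the other iron genes, up to 4 per role with the largest change among those called are named. Alternatives were scaling, filters, lanes, DESeq2 1.42.0 and left-out pairs.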

Additional observations from a re-analysis of the deposited data

Results flagged for a closer look

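In 20 groups of 4 libraries (10 genes in 2 subsets), 1 library was examined for lying far from the other 3 by Dixon's criterion, which chance meets in about 1 of 20 groups. Slc40a1 in the Tim-4+ library of pair 783 was 2.45 CPM, while the other Tim-4+ libraries lay between 0.0210 and 0.208 CPM. The gap was 0.923 of the range. The same library had the most hemoglobin transcripts of the 8, 247 CPM, and the Tim-4- library of that pair had the highest Slc40a1 of its subset too. Ncoa4 in the Tim-4- library of pair 793 was 56.0 CPM, while the other Tim-4- libraries lay between 86.5 and 91.9 CPM, with a gap of 0.848 of the range. That library is the one with a lane listed by symbol, and without that lane the log2 fold change of Ncoa4 stayed uncalled. Before TMM scaling, Ncoa4 was 62.7 CPM in that lane and 55.1 CPM in lane 2 of the same library. The lanes of the other Tim-4- libraries lay between 96.7 and 109 CPM. The causes were not tested.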

How the results depend on the processing

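Among 14 alternatives, the 7 called genes kept their direction in all 97 values that could be fitted. DESeq2 size factors, DESeq2's own paired test, TMM without mitochondrial genes, lane 2 only and the symbol-listed lane joined by symbol or left out changed no call among the 10 genes. Without the pair block, 0 members were called higher (4 with it) and 0 lower (3 with it), 1 and 0 of the other pathway genes (13 and 6), and 147 and 85 of all genes (1512 and 1421). With total counts as the scale, which put the median of all genes at -0.36, 0 members were called higher and 5 lower, 7 and 22 of the other pathway genes, and 789 and 4906 of all genes. Ncoa4 was then lower (-0.73, adjusted p = 0.0158) and so was Blvra. Without a count filter the other pathway genes went to 10 and 4 calls, losing among the named ones Steap4, Slc22a17, Steap2 and Fech. DESeq2's test called 2328 of all genes lower. Leaving out 1 pair gave 0 to 4 members called higher and 0 to 3 lower, 2 to 12 and 0 to 8 of the other pathway genes, and 91 to 1608 and 67 to 1975 of all genes, with 0 members called without pair 784. These fits had 6 libraries and used genes with at least 10 counts in 3. Values near 0 changed sign. Blvra was -0.003 without the block, -0.35 with total counts, -0.007 without a count filter and -0.001 with at least 100 counts in 4 libraries, and ranged from -0.056 to 0.083 with a pair left out. Slc48a1 was -0.29 with total counts and ranged from -0.117 (without pair 783) to 0.277 with a pair left out, and Fech was -0.002 with total counts. Steap3 was -0.248 with total counts and ranged from -0.071 (without pair 784) to 0.224 with a pair left out, and Steap1 was called lower with total counts (adjusted p = 0.0308), with DESeq2's test (0.0467) and in lane 2 only (0.0299). The cause of these changes was not tested, beyond the smaller number of libraries and the shift of the median. Depth limits Slc40a1, with 1 to 10 counts in 3 Tim-4+ libraries.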
